A study of Homo sapiens with 2 samples.

Results

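Serine synthesis and folate one-carbon metabolism were followed through 9 enzymes in SKOV3 cells with and without RUNX2 knockdown. The enzymes were PHGDH, PSAT1 and PSPH of serine synthesis, the serine hydroxymethyltransferases SHMT1 and SHMT2, the folate enzymes MTHFD1, MTHFD1L and ALDH1L2, and the glycine decarboxylase GLDC. They were taken by name. A probe was assigned to an enzyme when the RefSeq accession that the array files give for it belonged to that gene, and every such probe is described. Of the 9 enzymes, 8 had a probe, and 1, ALDH1L2, which oxidizes formyl folate in mitochondria, was not analysed here. The 8 enzymes had 14 probes among the 41000 probes of the array.

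SKOV3 is an established human ovarian adenocarcinoma line that grows as adherent epithelial cells. The study compared the clone cl-sh3, selected with puromycin after lentiviral delivery of a RUNX2 shRNA in the vector pLKO.1-puro, with a control (mock-transfected) clone that had received a scramble sequence in the same vector. Both clones therefore carried the vector and were selected with the same drug. Each side was 1 clone, and the knockdown used 1 shRNA, so effects of clone, shRNA and RUNX2 loss cannot be told apart. Total RNA of both clones was labeled and hybridized together in 2 hybridizations on 1 slide. In hybridization 1 the cl-sh3 RNA was labeled with Cy5 and the control RNA with Cy3, and in hybridization 2 the dyes were swapped. As both hybridizations used the same RNAs, they count as 1 replicate. No test between the clones was possible, and the spread given throughout is that between the hybridizations.

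Proliferating cells make serine from a glycolytic intermediate in a short chain of reactions: PHGDH, the committing enzyme, oxidizes it, PSAT1 adds an amino group, and PSPH removes the phosphate. The serine hydroxymethyltransferases then split serine into glycine and a carbon unit carried by folate. Mitochondria and cytosol hold parallel sets of these folate enzymes, and the carbon units go into purines, thymidylate and methionine. ATF4, a transcription factor of the amino acid response, is known to drive the serine synthesis genes and SHMT2, while RUNX2 is the runt-domain factor best known for bone formation.

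Values are log2 ratios of cl-sh3 over control after background correction and loess normalization, where -1 is a 2-fold lower and 1 a 2-fold higher level in cl-sh3. Normalized intensities are in arbitrary units and can be compared between the clones at a probe but not between probes. A probe was kept when at least 1 of the RNAs was well above background in both hybridizations, which held for 36060 probes and for all 14 probes of the enzymes. The enzymes' probes were well above background in both clones in both hybridizations. Between hybridizations the ratio of a kept probe differed by 0.223 in the median and by 0.628 at the 95th percentile. A probe was called lower or higher when it was at least 2-fold so in both hybridizations. The study's methods used the same rule. In bulk RNA, fewer cells with a transcript and less transcript per cell cannot be told apart.

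The target of the shRNA, RUNX2, was called lower in cl-sh3 at its brightest probe and at neither of the dimmer ones. It had normalized intensities of 658 in cl-sh3 and 2698 in control in hybridization 1, and of 839 and 2073 in hybridization 2, or log2 ratios of -2.04 and -1.30. The dimmer RUNX2 probes had log2 ratios of 0.17 and -0.13 and of -0.29 and -0.17, the last with control not well above background. All 8 markers of epithelial and SKOV3 cells were kept. KRT8, KRT18, KRT19 and EPCAM had mean log2 ratios between 0.37 and 0.68, ERBB2 had -0.66 at its brightest probe and 0.22 at its second, and PAX8, WT1 and MUC16 lay between -0.07 and 0.03. The 5 markers of leukocytes, endothelium and fibroblasts that had a probe were kept as well, so the mark of well above background alone does not show that a gene is expressed in these cells. Their mean log2 ratios lay between -0.30 and 0.14, and their part in the results was not tested.

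The promoters are shown for enzymes on both sides of the comparison, because the serine synthesis genes PHGDH and PSAT1 were called lower together while MTHFD1 was not. The letters are from a RefSeq table of promoters on the assembly GRCh38.p14, in which 6 of the 9 enzymes were matched (PHGDH, PSAT1, SHMT1, MTHFD1, MTHFD1L and GLDC), and they cover the 250 bases before the transcription start on the strand of the gene. Capitals mark a match, on either strand, to any of 3 motifs. These were TGATGNAA, the core of the C/EBP-ATF response element, TGTGGT, a core of the RUNX site, and CACGTG, the E-box. Only these letters were searched, with N for any base, and other forms of these sites were not.

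PHGDH, chr1:119711684-119711933, plus strand: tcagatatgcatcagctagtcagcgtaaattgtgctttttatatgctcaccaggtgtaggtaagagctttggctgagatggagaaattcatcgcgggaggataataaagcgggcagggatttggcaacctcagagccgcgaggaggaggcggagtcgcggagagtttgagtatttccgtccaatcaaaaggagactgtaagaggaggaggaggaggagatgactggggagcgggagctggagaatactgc
PSAT1, chr9:78296875-78297124, plus strand: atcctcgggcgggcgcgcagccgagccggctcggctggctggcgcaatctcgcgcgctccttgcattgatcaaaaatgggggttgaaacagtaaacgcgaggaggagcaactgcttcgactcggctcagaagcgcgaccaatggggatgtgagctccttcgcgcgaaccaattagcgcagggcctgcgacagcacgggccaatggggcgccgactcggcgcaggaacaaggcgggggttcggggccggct
MTHFD1L, chr6:150866236-150866485, plus strand: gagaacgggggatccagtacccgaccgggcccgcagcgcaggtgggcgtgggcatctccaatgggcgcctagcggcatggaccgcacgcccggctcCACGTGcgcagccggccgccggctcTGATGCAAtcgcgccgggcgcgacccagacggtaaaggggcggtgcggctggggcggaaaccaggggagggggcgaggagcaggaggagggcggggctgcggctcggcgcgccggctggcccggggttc
MTHFD1, chr14:64388103-64388352, plus strand: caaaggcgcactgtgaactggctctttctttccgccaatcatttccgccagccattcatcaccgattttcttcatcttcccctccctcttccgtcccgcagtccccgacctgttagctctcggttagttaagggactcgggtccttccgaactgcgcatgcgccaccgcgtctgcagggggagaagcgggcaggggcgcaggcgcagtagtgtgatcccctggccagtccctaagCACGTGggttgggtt

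The MTHFD1L window held both a C/EBP-ATF core, 129 to 122 bases before the start, and an E-box, 154 to 149 bases before it. MTHFD1 held an E-box 15 to 10 bases before the start. The windows of PHGDH, PSAT1, SHMT1 and GLDC held none of the 3 motifs, and none of the 6 enzymes held TGTGGT. As other forms of the RUNX core were not searched, this does not show that the windows lack one. The table lists 4 starts for MTHFD1L, and the motifs are in the windows of 2 of them, which overlap. Among the 35116 windows of the same length in the table, 3.14% held the C/EBP-ATF core, 11.0% TGTGGT and 6.34% the E-box. These matches describe letters in these windows and say nothing of binding there or elsewhere in the genes.

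Of the 14 probes, 3 were called lower in cl-sh3, 1 each for PHGDH, PSAT1 and SHMT2, beside 0.394% of all kept probes. None was called higher, beside 0.122%. The ratio was below 0 in both hybridizations at 9 probes, beside 27.3% of all kept probes, above 0 in both at 3 probes, beside 29.8%, and of opposite signs at the other 2. The median over the 14 probes was -0.44, with -0.71 in hybridization 1 and -0.14 in hybridization 2, and over all kept probes it was 0.01. With each gene represented by its brightest kept probe, 2 of 8 enzymes (PHGDH and PSAT1) were called lower, beside 0.520% of 16153 named genes. Their median was -0.65, against 0.01 for all named genes, and 5 enzymes lay below 0 in both hybridizations, beside 28.4% of named genes, and 3 above 0, beside 30.9%. PHGDH, PSAT1 and SHMT2 were also among the genes the study selected on these arrays, so their place here is not independent evidence.

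**Figure D1:**
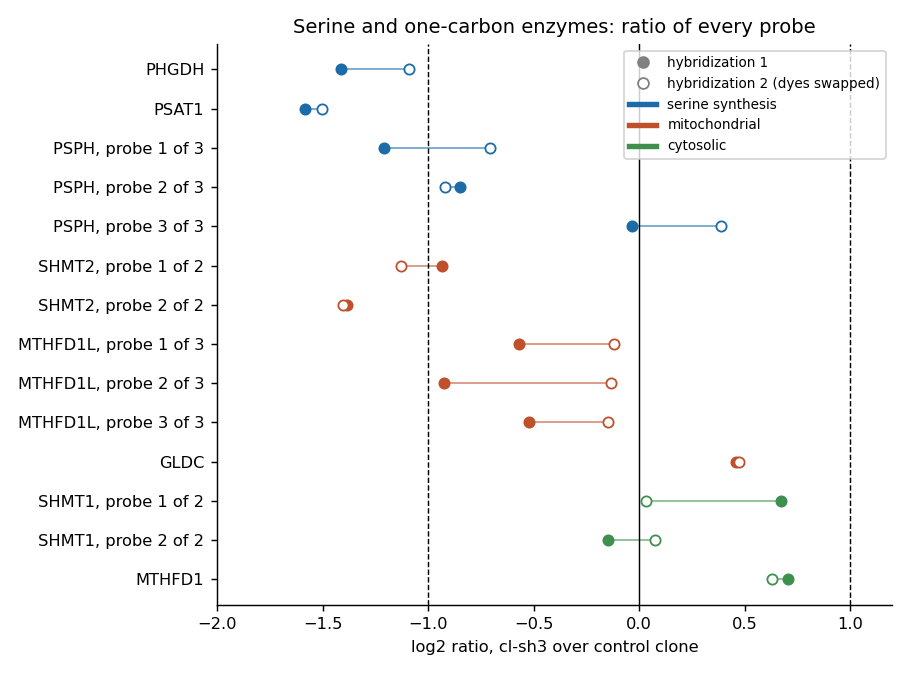
Log2 ratio of cl-sh3 over control (x axis) at each of the 14 probes of the enzymes (y axis), filled for hybridization 1 and open for hybridization 2, with dashed lines at a 2-fold difference. PHGDH, PSAT1 and the second probe of SHMT2 lie past 2-fold lower in both hybridizations, and MTHFD1 and GLDC lie above 0 in both.

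The serine synthesis enzymes were below 0 in both hybridizations at all but 1 of their 5 probes, beside 27.3% of all kept probes. PSAT1, the aminotransferase, had the lowest ratio among the enzymes. Its normalized intensity was 9397 in cl-sh3 and 28204 in control in hybridization 1, and 9939 and 28160 in hybridization 2. The values of cl-sh3 lay well under those of control in both dyes, and the clones did not overlap. Overlap, here and below, is that between readings of the same RNAs in both hybridizations and not a spread between replicates. How many of all kept probes lacked it was not counted. The log2 ratios were -1.59 and -1.50 (mean -1.54, 2.92-fold lower), a difference between hybridizations of 0.0832, and the probe ranked 44th from the lowest among the 36060 kept probes.

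PHGDH, the dehydrogenase that commits carbon to serine, had normalized intensities of 1544 in cl-sh3 and 4107 in control in hybridization 1, and of 1598 and 3403 in hybridization 2. The cl-sh3 values were nearly alike, and both lay under both control values. The log2 ratios were -1.41 and -1.09 (mean -1.25, 2.38-fold lower), which placed the probe 98th from the lowest. In hybridization 2 this was close to the 2-fold limit, and in the ratios computed by the scanner software it was -0.97 there, so that PHGDH did not meet the rule.

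PSPH, the phosphatase of the last step, had 3 probes for the same transcript accession, and they differed. At the brightest, the normalized intensity was 3097 in cl-sh3 and 7156 in control in hybridization 1, and 3752 and 6130 in hybridization 2, giving log2 ratios of -1.21 and -0.71. At the second, it was 1969 and 3547, then 1769 and 3347, giving -0.85 and -0.92. Both probes were lower in cl-sh3 in both dyes without overlap of the clones, with means of -0.96 and -0.88, and neither met the 2-fold rule. At the third and dimmest probe, the intensities were 1271 in cl-sh3 and 1304 in control, then 1358 and 1038, giving -0.04 and 0.39. There the clones overlapped, and the mean was 0.18. RefSeq lists at least 1 pseudogene copy of PSPH, as it does for PSAT1, SHMT1, MTHFD1 and GLDC, and hybridization of these copies to the probes was not tested.

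**Figure D2:**
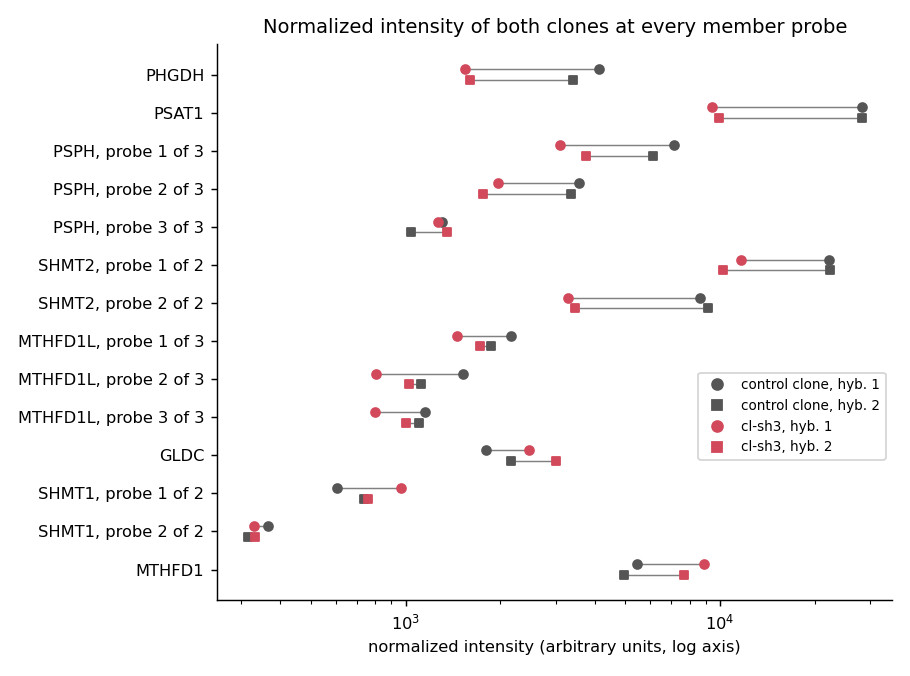
Normalized intensity (x axis, arbitrary units on a log axis) of the control clone (grey) and cl-sh3 (red) at each probe of the enzymes (y axis), with circles for hybridization 1 and squares for hybridization 2. At PSAT1 the control values of 28204 and 28160 lie apart from the cl-sh3 values of 9397 and 9939, while at the third probe of PSPH and the second of SHMT1 the clones overlap.

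Serine hydroxymethyltransferase moves the carbon unit from serine to folate, in mitochondria through SHMT2 and in the cytosol mainly through SHMT1. The brighter SHMT2 probe had normalized intensities of 11630 in cl-sh3 and 22207 in control in hybridization 1, and of 10250 and 22375 in hybridization 2. Its log2 ratios were -0.93 and -1.13 (mean -1.03), just short of the rule in hybridization 1. In the scanner software's own ratios it had -1.05 and -1.09 and met the rule. The other SHMT2 probe had 3296 in cl-sh3 and 8614 in control, then 3469 and 9184, with log2 ratios of -1.39 and -1.40, and was called lower. At both SHMT2 probes all cl-sh3 values lay under all control values.

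SHMT1 did not meet the rule at either probe. Its brighter probe had normalized intensities of 964 in cl-sh3 and 605 in control in hybridization 1 and of 757 and 740 in hybridization 2, giving log2 ratios of 0.67 and 0.03. Its dimmer probe had 331 and 367, then 332 and 315, giving -0.15 and 0.08. The clones overlapped at the dimmer probe. At the brighter probe the ratios differed by 0.641 between the dye orientations, more than at 95% of kept probes. The difference between the paralogs at their brightest probes, SHMT2 minus SHMT1, was -1.61 in hybridization 1 and -1.16 in hybridization 2 on the log2 scale.

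The next steps of the folate pathway are carried out by MTHFD1, a cytosolic enzyme that joins several activities, and in mitochondria by enzymes that include MTHFD1L, which releases formate. MTHFD1 had normalized intensities of 8894 in cl-sh3 and 5453 in control in hybridization 1, and of 7679 and 4965 in hybridization 2. Both cl-sh3 values were above both control values, and the log2 ratios of 0.71 and 0.63 (mean 0.67, 1.59-fold higher) were under 2-fold. The mean lay at percentile 98.4 of the kept probes.

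The 3 probes of MTHFD1L were lower in cl-sh3 in both hybridizations, beside 27.3% of all kept probes, but by far less in hybridization 2. The brightest had normalized intensities of 1455 in cl-sh3 and 2156 in control in hybridization 1, and of 1723 and 1870 in hybridization 2. The log2 ratios were -0.57 and -0.12 at this probe, -0.92 and -0.13 at the second, and -0.52 and -0.15 at the third. All were nearer 0 when cl-sh3 was labeled with Cy3, and at the second probe the hybridizations differed by 0.792, past the 95th percentile of all kept probes. The part of the dyes in these values was not tested. MTHFD1L minus MTHFD1, at the brightest probes, was -1.27 and -0.75.

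GLDC is the decarboxylase of the glycine cleavage system, the mitochondrial complex that breaks glycine down into carbon dioxide, ammonia and a folate-bound carbon unit. It had normalized intensities of 2466 in cl-sh3 and 1797 in control in hybridization 1, and of 3002 and 2160 in hybridization 2. The cl-sh3 value was the higher in each hybridization, with log2 ratios of 0.46 and 0.47 (mean 0.47, 1.38-fold), and the lowest cl-sh3 value lay above the highest control value. The mean was at percentile 95.8 and under 2-fold. Of the mitochondrial enzymes, SHMT2 and MTHFD1L thus had ratios below 0, and GLDC a ratio above 0.

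**Figure D3:**
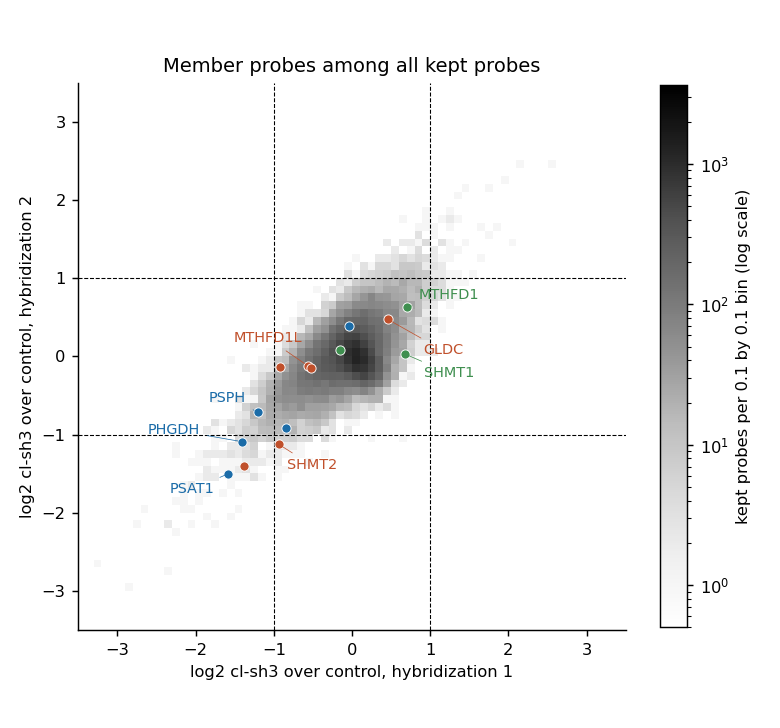
Log2 ratio of cl-sh3 over control in hybridization 2 (y axis) against hybridization 1 (x axis), with the number of kept probes per bin in grey for all 36060 and the 14 probes of the enzymes as points, blue for serine synthesis, orange for mitochondrial and green for cytosolic folate enzymes. The name stands by the brightest probe of each gene, and 3 points lie in the lower left field of 2-fold lower in both.

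The surrounding pathways were described through 7 lists of genes. Of their 61 genes, 60 had a probe and 58 were kept. None of the 58 was called lower, beside 0.520% of named genes, and 1 was called higher, beside 0.136%. In both hybridizations 16 were below 0, beside 28.4%, and 20 above, beside 30.9%. Their median log2 ratio was 0.04. The gene called higher was PRPS1, which makes the ribose phosphate on which purines are built, with normalized intensities of 11246 in cl-sh3 and 5420 in control in hybridization 1, and of 15786 and 6838 in hybridization 2. Its log2 ratios were 1.05 and 1.21, and those of its second probe 0.79 and 0.82, so that the mean over its probes did not meet the rule.

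By list, the partners of GLDC in glycine cleavage (AMT, GCSH, DLD and LIAS) all lay below 0 in both hybridizations. That was 4 of 4, beside 28.4% of named genes, with a median of -0.18. DLD, the shared dehydrogenase subunit, had -0.47 and -0.31, and LIAS, which makes the lipoyl cofactor, -0.16 and -0.31. The others lay close to 0, with -0.05 and -0.07 for GCSH and -0.09 and -0.15 for AMT at its brightest probe. No partner came near 2-fold.

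Genes of folate uptake, storage and reduction had a median of 0.10. In both hybridizations 2 of 10 were below 0, beside 28.4% of named genes, and 5 above, beside 30.9%. The other folate one-carbon enzymes had a median of -0.01 over 6 genes. FTCD, of histidine breakdown, had -0.82 and -0.40.

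The methionine cycle had a median of 0.09 over 10 kept genes. BHMT, which methylates homocysteine with betaine, had 0.71 and 0.41, and 0.08 and 0.11 at its dimmer probe, which was not kept. MTRR, the reductase that keeps methionine synthase active, had -0.68 and -0.28. In purine synthesis (8 genes, median 0.04), PRPS1 was followed by its paralog PRPS2, with 0.15 and 1.09 at its brightest probe. There the hybridizations differed by 0.932, past the 95th percentile of all kept probes. The second PRPS2 probe had -0.11 and 0.71, of opposite signs.

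Serine and glycine transport and use had a median of 0.02 over 16 genes. The neutral amino acid transporter SLC1A5 had -0.95 and -0.14, and CBS, which joins serine to homocysteine, had -0.57 and -0.44 at its brightest probe and -0.16 and 0.02 at its second. Choline oxidation, a further source of folate-bound carbon, had a median of 0.12 over 4 kept genes. ALDH7A1, which oxidizes betaine aldehyde, had 0.06 and 0.23 at its brightest probe and 0.24 and -0.20 at its second. SARDH, the sarcosine dehydrogenase, had 0.04 and 0.26 at its kept probe, where control was not well above background in hybridization 2, and 0.17 and -0.15 at its brighter probe, which was not kept.

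**Figure D4:**
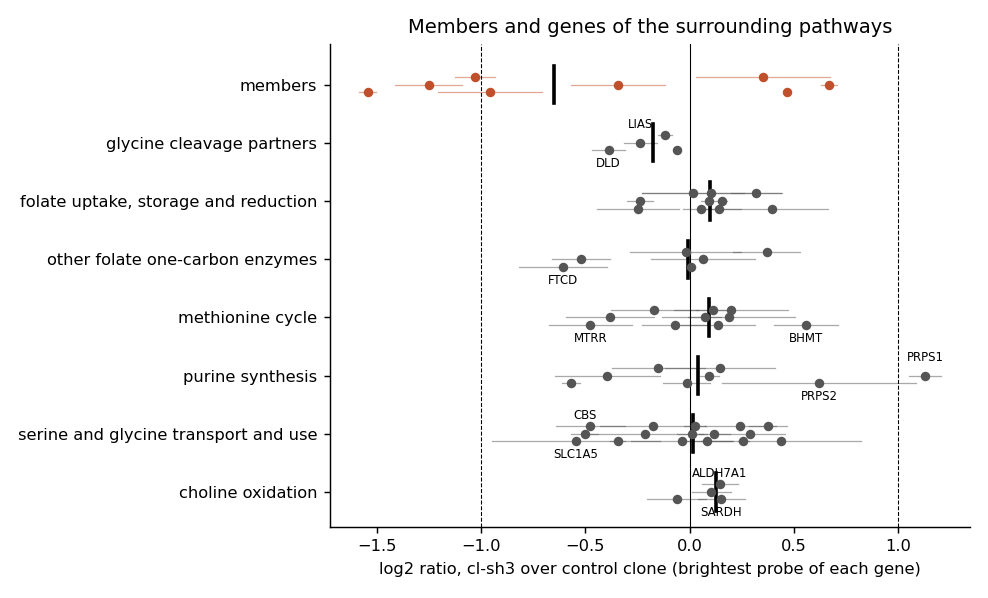
Log2 ratio of cl-sh3 over control (x axis) for the brightest kept probe of each gene, by list (y axis), with a point for the mean, a thin line between the hybridizations, a black bar for the median of the list and dashed lines at 2-fold. The bar of the enzymes lies at -0.65, those of the related lists lie between -0.18 and 0.12, and names mark the genes of the related lists that are described in the text.

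Of the transcription factors known to act on serine synthesis genes, ATF4 was called lower. Its brightest probe had normalized intensities of 75815 in cl-sh3 and 220563 in control in hybridization 1, and of 70906 and 174404 in hybridization 2, with log2 ratios of -1.54 and -1.30, and the clones did not overlap. With median centring of the ratios in place of loess, this probe had -1.04 and -1.31, close to the 2-fold limit in hybridization 1. The second ATF4 probe had -0.93 and -0.62 and did not meet the rule. NFE2L2, the oxidative stress factor, had -0.40 and -0.85. MYC, a proto-oncogene that also acts on SHMT2, had -0.08 and 0.12 at its brightest probe, and the clones overlapped there. RNA levels of these factors do not show their activity, and a link to the enzymes was not tested.

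Which enzymes met the 2-fold rule at their brightest probe turned on the source of the ratio for PHGDH and SHMT2. With loess, PHGDH had -1.41 and -1.09 and met it, while SHMT2 had -0.93 and -1.13 and did not. In the software's ratios, PHGDH had -1.44 and -0.97, and SHMT2 had -1.05 and -1.09. PSAT1, with -1.50 and -1.46 there, met the rule in both.

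**Figure D5:**
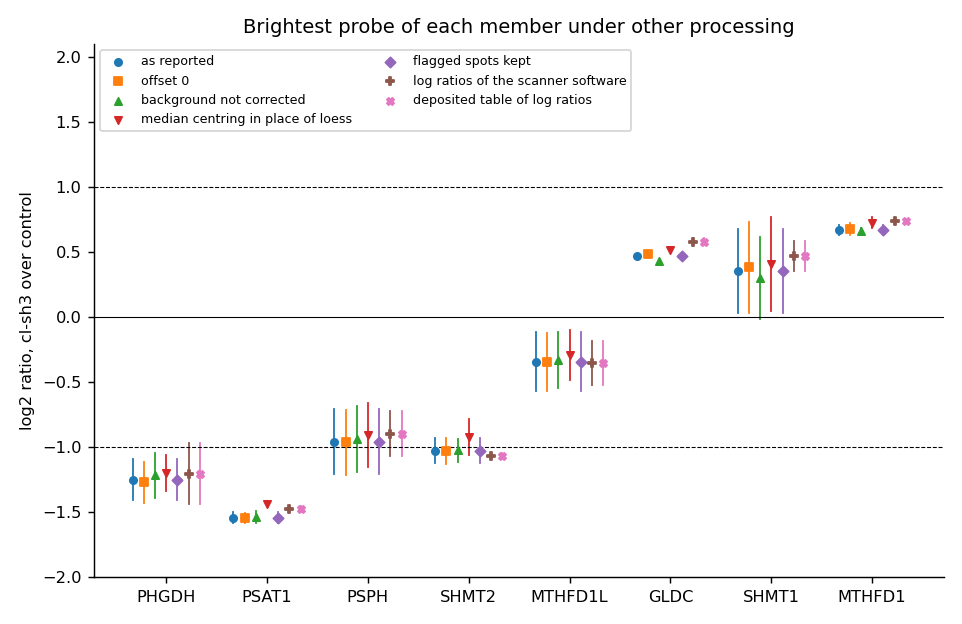
Log2 ratio of cl-sh3 over control (y axis) at the brightest probe of each enzyme (x axis) as reported and under 6 other ways of processing, with a marker for the mean and a line between the hybridizations, and dashed lines at 2-fold. PHGDH and SHMT2 trade places at the 2-fold line between loess and the software's ratios, while PSAT1 stays beyond it throughout.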

How the data were processed

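Agilent whole human genome arrays measured RNA of the clone cl-sh3 against RNA of the control clone in SKOV3 cells, in 2 hybridizations of opposite dye on 1 slide. The authors deposited the intensity of every spot with its local background and flags, as read by Feature Extraction (10.5.1.1 in the file headers, 8.5.1.1 in the submitters' processing notes), with the log10 ratio that this software gives for Cy5 over Cy3. They also deposited a table of log10 ratios, which differed from the software's by at most 0.00245 and 0.00500. Further normalization is not given in the sources used here.

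Median foreground and background intensities were corrected by normexp, offset 50, in limma 3.58.1 (R 4.3.3). Control spots (1639 of 45015 per array) were then removed, flagged spots (153 and 144) were set to missing, and loess was applied within each array before averaging the spots of a probe. Ratios were written as log2 of cl-sh3 over control, and single channels were scaled with Aquantile. A probe counted as well above background when at least 50% of its spots carried the software's flag, which held for 77.3% to 93.9% of probe spots per channel. In each array 0 spots were saturated. With so few arrays the precision is limited to technical error.

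Probes were named by accession through a RefSeq table of GRCh38.p14, which held 18023 of 19228 RefSeq accessions, and the retired accession of RUNX2 through a table of the study. The arrays use another build, so no coordinates are given for probes or genes, and those of promoters belong to the promoter table of GRCh38.p14. The enzymes and lists were chosen with earlier results of these data known. The genes named are all 9 enzymes with every probe, RUNX2, ATF4, NFE2L2, MYC, the cell markers, and from each related list the genes that met the 2-fold rule and the 2 of largest absolute mean ratio, with AMT and GCSH named to complete their list. Some genes that this rule would name are not reported here. Background correction, loess and the 2-fold rule were tested on simulated data of the same size, with changes set past 2-fold. Changes near the 2-fold limit, the filter on detection and the choice of probe were not part of that test. Python 3.11.15, numpy 2.4.6, pandas 2.3.3 and matplotlib 3.10.9 were used outside R. Protein and probe sequences were not used here. The alternatives were offset 0, no background correction, median centring, keeping flagged spots, no filter or a filter on both RNAs, the software's ratios, the deposited table, each hybridization alone, a 2-fold rule on the mean, and averaging the probes of a gene.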

Additional observations from a re-analysis of the deposited data

How the results depend on the processing

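The direction of the medians over the enzymes, and of the differences SHMT2 minus SHMT1 and MTHFD1L minus MTHFD1, held under every alternative run. The count of enzyme probes called lower was 3 in the alternatives that required 2-fold in both hybridizations, and 4 with the mean of both. By gene the count was 2 or 3, and its members differed: PHGDH and PSAT1 with loess, PSAT1 and SHMT2 in the software's ratios and the deposited table. Of the counts, medians and paralog differences over the alternatives, 119 moved by less than the spread between hybridizations or stayed within 1.5 times the count, and 3 moved by more. Of the mean ratios of single enzymes, 75 moved by less than that spread and 13 by more, at PSAT1, MTHFD1, GLDC, PSPH and SHMT2, and none changed sign. Part of the 119 and the 75 was fixed in advance. Leaving out either hybridization moves a mean ratio or a paralog difference by less than this spread by arithmetic alone. The filters on detection could not change the enzymes' ratios, as all their probes were well above background. The deposited table nearly repeats the software's ratios, so these alternatives are not separate checks, though each was counted among the moved and unmoved results. With median centring the median of the related pathway genes was 0.10 in place of 0.04. When the probes of a gene were averaged, 0 related genes were called higher in place of 1. Without replicate 1, 2 were, PRPS1 and PRPS2.

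By brightest probe, hybridization 1 alone called PHGDH, PSAT1 and PSPH lower, and hybridization 2 alone PHGDH, PSAT1 and SHMT2. Each thus called 3 enzymes by brightest probe, and the share of named genes to set beside this was not computed. By probe, each called 4 enzyme probes in all, beside 1.36% of all kept probes in hybridization 1 and 0.51% in hybridization 2. Leaving out each hybridization gave 9 to 11 probes below 0, medians of -0.71 to -0.14 over probes and -0.75 to -0.41 over genes, 1 to 2 related genes called higher and 0 lower, and a median of the related genes of 0.03 to 0.07. The paralog differences were -1.61 to -1.16 for the hydroxymethyltransferases and -1.27 to -0.75 for MTHFD1L minus MTHFD1. With its probes averaged, PSPH had -0.56 in place of -0.96 and SHMT2 -1.21 in place of -1.03. Each ratio compares both clones within the same array. No test was made, because the hybridizations share the same RNAs.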
